A study of Mus musculus with 26 samples.

Results

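Prg4-high fibroblasts were cells of mouse skin with at least 3 UMIs of Prg4, at least 1 UMI of the collagen gene Col1a1 and 0 UMIs of the leukocyte gene Ptprc. A UMI (unique molecular identifier) marks 1 captured RNA molecule. Among barcodes with at least 500 detected genes and at most 10% mitochondrial UMIs, 737 cells met the rule, of 22900 cells with Col1a1 and without Ptprc and of 33086 barcodes in all. They made up 547 of 18172 such cells in tube 1, or 3.01% (95% exact Clopper-Pearson interval 2.77 to 3.27), and 190 of 4728 in tube 2, or 4.02% (3.48 to 4.62). Intervals here cover counting error only. The cells were chosen by a measured value, Prg4, in the same libraries, so each difference between them and the other 17625 and 4538 cells is a description and carries no test.

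Prg4 encodes lubricin, a mucin-like glycoprotein that coats cartilage, tendon sheaths and other gliding surfaces and is best known from the lining fibroblasts of joints. Fibroblasts of injured skin are known to secrete chemokines and acute phase proteins, to restrain proteolysis through inhibitors such as Timp1 (a metalloproteinase inhibitor) and Serpinb2, and to lay down matricellular proteins such as Tnc (tenascin-C) and Spp1 (osteopontin). Serpinb2 encodes plasminogen activator inhibitor-2, which blocks urokinase. These 4 genes and Prg4 were the markers given for the cells under the name injury-like.

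The cells came from the postnatal skin of Prrx-Cre mice, were freed with collagenase and were isolated as fibroblasts by FACS. Both tubes were labelled as ventral skin, while the design text describes 8 samples of Prrx1-positive (PPF) and Prrx1-negative (PNF) fibroblasts, from caudal and ventral skin, wounded or unwounded, that were tagged with hashtag antibodies and pooled. The mice's age, the time after wounding and any further allele are not given in these sources, and a Prrx-driven Cre marks a lineage and not the current level of Prrx1. The labels do not tie a hashtag to a sample, so each tube counted as 1 sample and wounded skin was not compared with unwounded skin. In 24 bulk libraries, ventral skin fibroblasts of the same strain were sequenced as PPF and PNF at E16.5, E18.5, P1 and P30. Barcodes found in both tubes numbered 42, of which 1 was a Prg4-high cell in tube 2 and none was in tube 1.

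Prg4-high cells were deeper than the rest: their median was 5183 UMIs against 2687 in tube 1 and 11004.5 against 4329 in tube 2. Medians of detected genes were 1898 against 1196 and 3041.5 against 1659.5, and mitochondrial shares were 5.37% against 6.49% and 3.86% against 4.26%. Levels are therefore given as CPM, UMIs of a gene per 1000000 UMIs, of the summed cells, and folds are also given with the other cells weighted to the Prg4-high cells' distribution of total UMIs, called depth-weighted below. The rule itself favours deep cells, in which 3 UMIs of a gene are reached more easily. With every cell thinned to 2000 UMIs before the rule, the shares were 1.78% and 1.13%.

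Of the 5 markers, Prg4 set the rule and Timp1 was the one that nearly all Prg4-high cells shared. Timp1 stood at 4118 CPM against 647 in tube 1, a 6.37-fold difference (counting interval 6.24 to 6.50), and at 4597 against 1485 CPM in tube 2, or 3.09-fold. A Timp1 UMI was present in 90.9% of Prg4-high cells and 48.8% of other cells in tube 1, and in 97.9% and 84.6% in tube 2. The depth-weighted folds of Timp1 were 4.46 and 2.16, so its order held in both tubes at like depth. Tnc stood at 1175 against 326 CPM and at 1643 against 850 CPM, with folds of 3.60 and 1.93 that became 2.48 and 1.36 with depth weighting.

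Serpinb2 and Spp1 were concentrated in few cells. Serpinb2 stood at 142 against 3.85 CPM in tube 1 and 47.0 against 10.2 CPM in tube 2, but had a UMI in 19.4% and 7.37% of Prg4-high cells. Spp1 stood at 172 against 22.2 CPM and at 127 against 56.8 CPM, with a UMI in 11.2% and 8.95% of Prg4-high cells. The top 5% of Prg4-high cells held 89.9% of all Spp1 UMIs in tube 1 and 97.2% in tube 2. Depth weighting left Serpinb2 at 14.9-fold and 2.03-fold, and Spp1 at 2.75-fold in tube 1 but 0.795-fold in tube 2, where its direction turned. All 4 other markers were found together in 28 of 547 cells in tube 1 and in 0 of 190 in tube 2, while 43 and 3 cells had none of them. Timp1 was thus found in most of the cells, and Serpinb2 and Spp1 in a minority of them in both tubes. The cells are therefore called by their Prg4 rule.

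Of 10 measured fibroblast genes, 0 were at least 2-fold higher or lower in both tubes, with medians of -0.54 and -0.27 on the log2 scale. Col1a2 and Dcn, a fibrillar collagen chain and the small proteoglycan decorin, had a UMI in 100% of Prg4-high cells of both tubes. In other cells, themselves chosen to have Col1a1, both had one in 99.7% or more. Pdgfrb, another of the 10, had one in 42.0% and 72.6% of Prg4-high cells against 34.5% and 55.3% of others. No UMI of the 9 erythroid genes was found in Prg4-high cells. Of the 14 macrophage and dendritic genes, 5 were at 0 in each tube (Ptprc by the rule), and their summed level was 66.9 against 62.1 CPM in tube 1 and 27.3 against 49.3 CPM in tube 2. Endothelial genes summed to 44.2 against 38.3 CPM and 23.7 against 34.6 CPM with 6 and 7 of 13 genes at 0, and keratinocyte genes to 83.0 against 87.4 CPM and 29.5 against 107.6 CPM with 6 of 14 at 0 in each tube. Pericyte and smooth muscle genes summed to 200.4 against 213 CPM and 156 against 306 CPM, with 0 of 11 at 0. Cartilage and bone genes summed to 47.8 against 39.8 CPM in tube 1 and 196 against 64.5 CPM in tube 2, with 11 of 18 at 0 in each tube. A Prg4 UMI was also found in 8 of 123 Ptprc-positive cells of tube 1 (6.50%, median 1945 UMIs) and 7 of 50 of tube 2 (median 2683 UMIs), against 10.5% and 20.3% of cells with Col1a1 and without Ptprc. At 3 or more UMIs, 2 of the 123 and 1 of the 50 remained, and whether these UMIs came from free RNA or from barcodes of 2 cells was not tested.

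The Prg4 gene lies on chromosome 1 (150449412 to 150466165, minus strand, GRCm38/mm10, GENCODE vM21). Promoters were searched, as a description of members that were high together, for TGANTCA (AP-1), TTCNNNGAA (STAT), ACGTG (the hypoxia response core) and an NF-kappaB-like pattern of GGG and CC with 5 bases of any kind between them, on both strands and in windows from 250 bases before to 50 after each start, from RefSeq on GRCm38.p6. A promoter was matched for 4 of the 5 markers (Prg4 had none) and for 13 of the 20 genes with the largest folds. The 250 bases before the most upstream start are printed for the 4 matched markers and for Saa3, the acute phase gene with the highest level of the 20. They are chrX:20869916-20870165 (plus strand) for Timp1, chr1:107511173-107511422 (plus) for Serpinb2, chr4:64047016-64047265 (minus) for Tnc, chr5:104434861-104435110 (plus) for Spp1 and chr7:46715677-46715926 (minus) for Saa3. Capitals mark motif matches.
Timp1: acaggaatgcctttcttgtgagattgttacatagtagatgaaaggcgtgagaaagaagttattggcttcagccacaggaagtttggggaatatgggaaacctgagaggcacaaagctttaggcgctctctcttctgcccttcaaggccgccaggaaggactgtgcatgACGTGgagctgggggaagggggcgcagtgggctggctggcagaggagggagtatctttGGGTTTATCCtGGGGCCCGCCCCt
Serpinb2: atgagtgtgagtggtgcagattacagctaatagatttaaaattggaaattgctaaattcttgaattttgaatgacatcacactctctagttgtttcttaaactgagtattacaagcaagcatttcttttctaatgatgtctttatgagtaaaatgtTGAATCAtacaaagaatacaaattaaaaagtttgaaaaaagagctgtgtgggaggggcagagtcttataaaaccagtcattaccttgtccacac
Tnc: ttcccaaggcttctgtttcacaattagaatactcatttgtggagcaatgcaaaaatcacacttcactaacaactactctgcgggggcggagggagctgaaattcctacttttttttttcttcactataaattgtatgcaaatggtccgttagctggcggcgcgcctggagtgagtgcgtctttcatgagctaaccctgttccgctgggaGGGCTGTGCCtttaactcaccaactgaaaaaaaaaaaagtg
Spp1: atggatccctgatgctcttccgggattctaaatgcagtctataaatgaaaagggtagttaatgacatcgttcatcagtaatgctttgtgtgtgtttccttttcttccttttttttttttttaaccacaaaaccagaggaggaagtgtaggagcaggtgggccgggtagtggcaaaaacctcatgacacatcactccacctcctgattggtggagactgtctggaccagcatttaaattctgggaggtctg
Saa3: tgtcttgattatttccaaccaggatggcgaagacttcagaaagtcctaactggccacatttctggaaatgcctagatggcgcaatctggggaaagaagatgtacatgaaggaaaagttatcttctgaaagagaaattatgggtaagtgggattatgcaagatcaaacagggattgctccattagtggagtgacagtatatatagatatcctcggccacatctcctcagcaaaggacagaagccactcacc
Timp1 had ACGTG at bases -82 to -78 from its start and 4 matches to the NF-kappaB-like pattern, 3 of them overlapping, between -24 and -2. Serpinb2 had TGANTCA at -94 to -88 and TTCNNNGAA at 11 to 19, past the printed bases. Tnc had the NF-kappaB-like pattern at -41 to -32, and the printed bases of Spp1 and Saa3 held none of the 4. Across all 32851 windows, 7.81% held TGANTCA, 8.3% TTCNNNGAA, 19.6% ACGTG and 50.8% the NF-kappaB-like pattern. Windows of the genes at least 2-fold higher in Prg4-high cells, 85 in number, held them in 8.24%, 8.24%, 22.4% and 74.1%, and the 80 windows of the genes at least 2-fold lower in 12.5%, 8.75%, 23.8% and 63.8%. The NF-kappaB-like pattern was thus more frequent than in all windows for higher and for lower genes alike.

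A gene counted as measured at 20 CPM or more in either class in both tubes, and 5559 genes were. Of these, 97 were at least 2-fold higher in Prg4-high cells in both tubes (1.74%) and 83 at least 2-fold lower (1.49%). The 97 included Prg4, which set the rule. With depth weighting, 24 of 5510 were higher (0.436%) and 28 lower (0.508%), and all 24 higher genes were among the 97. Of the 20 leading higher genes, taken by their weaker fold, 13 kept a 2-fold difference with depth weighting and 19 kept their direction in both tubes. The plot of folds in tube 1 against tube 2 shows Prg4 and Serpinb2 apart from the rest, and Tnc just short of 2-fold in tube 2.

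**Figure D1:**
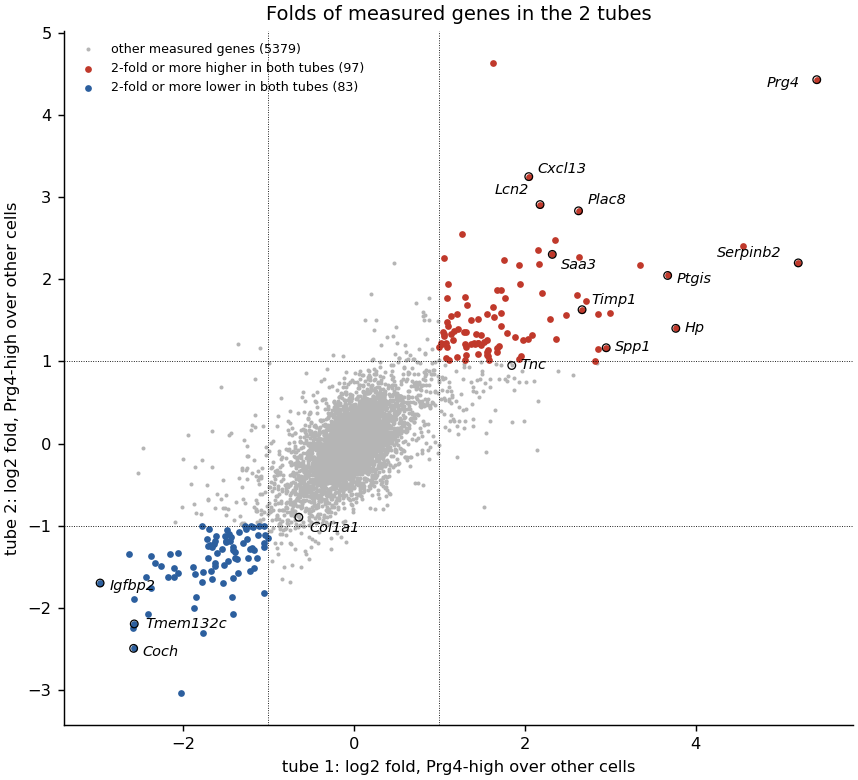
Each point is 1 of 5559 measured genes, with its log2 fold of Prg4-high over other cells in tube 1 on the x axis and in tube 2 on the y axis; dotted lines mark 2-fold, 97 genes lie past them upwards (red) and 83 downwards (blue). Prg4, which set the rule, is at the far upper right, and Col1a1 lies below 0 in both tubes.

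Of the 20 leading higher genes, Saa3 had the highest level in both tubes. Saa3 (serum amyloid A3, an acute phase protein) stood at 14776 against 2954 CPM in tube 1 and at 14151 against 2867 CPM in tube 2, or 5.00-fold and 4.94-fold, and at 3.96-fold and 2.48-fold with depth weighting. Lcn2, lipocalin-2, which binds bacterial siderophores, stood at 890 against 197 CPM and 645 against 85.9 CPM. Ptx3, a secreted pentraxin that recognises microbes, stood at 212 against 41.3 CPM and 682 against 123 CPM. Plac8, a small cysteine-rich protein, was the leading gene other than Prg4 by its weaker fold, at 382 against 61.7 CPM and 275 against 38.6 CPM. Haptoglobin (Hp), which binds free haemoglobin, was 13.6-fold higher in tube 1 and 2.64-fold in tube 2, and its depth-weighted folds of 9.20 and 0.840 lay on opposite sides of 1. Among 13 measured NF-kappaB response genes, Sod2, Saa3 and Lcn2 were at least 2-fold higher and 0 were lower. Among 14 of the STAT3 and gp130 pathway, Saa3, Lcn2 and Timp1 were higher and Il6ra, the interleukin-6 receptor, was lower. With depth weighting, Sod2 and Il6ra were no longer past 2-fold in both tubes.

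Chemokines and cytokines were the list with the most members past 2-fold. Of 17 measured, 8 were higher in both tubes (Cxcl1, Cxcl2, Cxcl5, Cxcl14, Cxcl16, Ccl2, Il6 and Il33) and 0 were lower, with medians of 1.17 and 1.03 on the log2 scale against -0.02 and 0.01 over all measured genes. With depth weighting 3 of the 17 remained past 2-fold (Cxcl14, Cxcl16 and Il33), with medians of 0.83 and 0.69 against -0.06 and -0.02. Il33, an alarmin released by damaged cells, stood at 391 against 101 CPM and 342 against 89.1 CPM and was 3.11-fold and 2.39-fold higher with depth weighting. Cxcl13, a B cell chemoattractant, stood at 287 against 69.4 CPM and 578 against 60.8 CPM, yet had a UMI in 83 of 547 and 57 of 190 Prg4-high cells. The neutrophil chemoattractant Cxcl5 was 7.24-fold higher in tube 1 and 2.99-fold in tube 2, where it was already at 764 CPM in the other cells. Il6 was 2.70-fold and 2.52-fold higher, with depth-weighted folds of 2.45 and 1.89.

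Inhibitors of proteolysis differed by family member. Timp2 was lower where Timp1 was higher, at 0.503-fold and 0.604-fold, and Timp1 was the single member of the 3 measured metalloproteinase inhibitors past 2-fold. The plasminogen activator Plat was 2.25-fold higher in tube 1 and 1.21-fold in tube 2. Of 13 measured metalloproteinases and related proteases, Adam12 alone was at least 2-fold higher in both tubes, at 2.00-fold and 2.25-fold, and 0 were lower. With depth weighting 0 of the 13 were past 2-fold.

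Matrix genes were mostly at or below the level of other cells. Col1a1 stood at 13857 against 21650 CPM in tube 1 and 13099 against 24370 CPM in tube 2, or 0.640-fold and 0.538-fold. Elastin (Eln) was 0.279-fold and 0.557-fold. Of 24 measured collagens and fibrillar matrix genes, Col8a1, a short-chain collagen of vessels and scars, was higher at 4.46-fold and 5.14-fold. Col15a1 of the basement membrane zone was lower, and the medians of the 24 were -0.18 and -0.06 on the log2 scale. A Col8a1 UMI was found in 15.2% and 18.4% of Prg4-high cells. The top 5% of Prg4-high cells held 65.0% and 83.3% of its UMIs. With other cells weighted to the Prg4-high cells' hashtags, Col8a1 was not past 2-fold in both tubes. Cthrc1, a secreted protein of activated fibroblasts, was 4.10-fold and 2.41-fold higher, and 2.42-fold and 1.33-fold with depth weighting. Of 17 measured contractile genes, Actn1 was higher and Myl9, a myosin light chain, lower. With depth weighting 0 of the 17 were at least 2-fold higher, and Tagln and Myl9 were lower. Lrrc15, a marker of late wound myofibroblasts, was 1.21-fold and 1.16-fold, and its weaker log2 fold turned to -0.26 with depth weighting. Of the lubricin and hyaluronan list, Prg4 was past 2-fold and the other 5 measured genes were not. The hyaluronan receptor Cd44, to which lubricin binds, was 1.62-fold higher in each tube. Of the synovial lining list, Prg4 was likewise the 1 of 4 measured genes past 2-fold, and Has1 was 1.26-fold and 1.30-fold.

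Hypoxia and glycolysis genes were higher on the whole in tube 1 and less so in tube 2. The median of 19 measured genes was 1.43 on the log2 scale in tube 1 and 0.74 in tube 2, and 1.21 and 0.24 with depth weighting. Slc2a1, the glucose transporter, and Ldha, lactate dehydrogenase A, were the 2 past 2-fold in both tubes, and 0 were past it with depth weighting. Angptl4, a lipase inhibitor induced by low oxygen and fatty acids, was 2.95-fold and 2.99-fold higher, and 2.57-fold and 2.31-fold with depth weighting. Among 7 measured cell cycle genes Top2a, Ube2c and Birc5 were past 2-fold, and 0 of 9 with depth weighting. Immediate early genes and heat shock genes, which tissue digestion can also raise, had 0 of 16 and 0 of 12 members past 2-fold, with medians of -0.22 and -0.09 for the first and 0.69 and 0.51 for the second. Of 18 measured genes of secretory load, 0 were past 2-fold, with medians of 0.45 and 0.47.

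**Figure D2:**
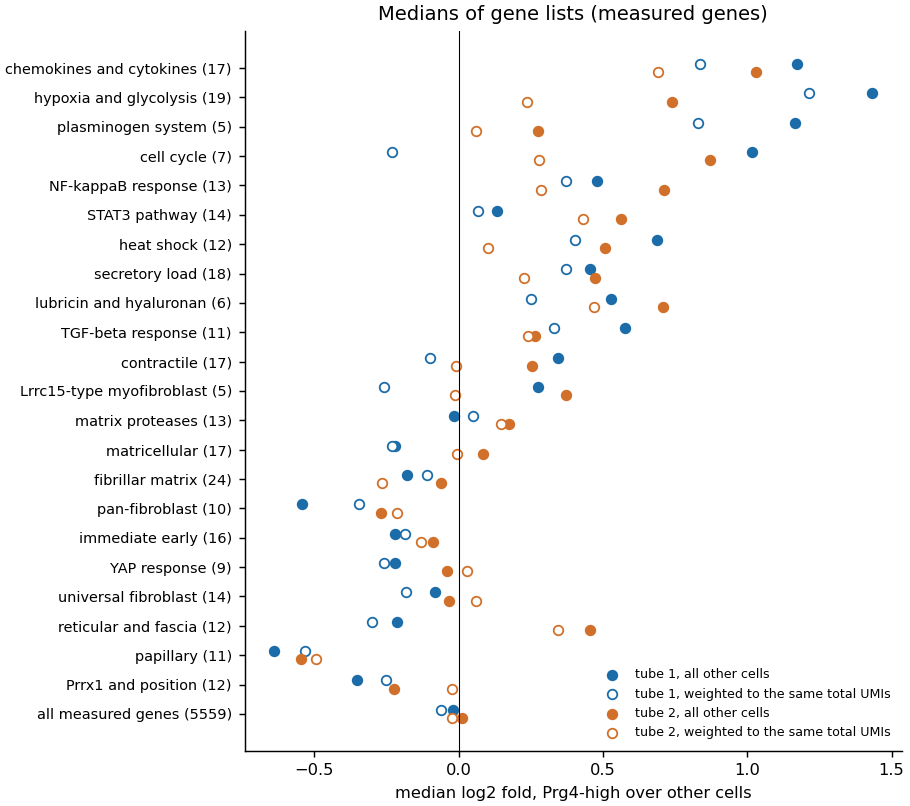
Each row is a gene list with its number of measured genes, and the x axis is the median log2 fold of Prg4-high over other cells; filled points use all other cells and open points other cells weighted to the same total UMIs, in blue for tube 1 and orange for tube 2. Chemokines and cytokines have medians of 1.17 and 1.03, while the median over all 5559 measured genes is near 0 in both tubes.

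Genes that were low in Prg4-high cells included signals of the dermis. Wnt5a, a non-canonical Wnt ligand, stood at 20.7 against 71.0 CPM in tube 1 and 21.0 against 67.8 CPM in tube 2, or 3.42-fold and 3.23-fold lower. Bmp4, a bone morphogenetic protein of the upper dermis, was 5.17-fold and 3.38-fold lower, and Rspo1, which amplifies Wnt signals, 4.16-fold and 2.98-fold. Dkk2, a Wnt antagonist, was the 1 of 11 measured papillary dermis genes past 2-fold, and this list had medians of -0.64 and -0.55. With depth weighting 0 of 9 measured papillary dermis genes were past 2-fold. Igfbp2, which binds insulin-like growth factors, was 7.83-fold lower in tube 1 and 3.24-fold in tube 2. Enpp2, which makes lysophosphatidic acid, was 3.66-fold and 4.01-fold lower, and the detoxifying enzyme Aldh3a1 5.31-fold and 4.21-fold. Coch, a secreted matrix protein, led the list at 5.97-fold and 5.63-fold, although a Coch UMI was found in 4.20% and 10.8% of other cells and the level is thus that of few cells. Of the 12 leading lower genes, 12 kept their direction with depth weighting and 10 kept a 2-fold difference, Cyp2f2 and Rspo1 being the exceptions at 1.57-fold and 1.92-fold lower in tube 2.

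**Figure D3:**
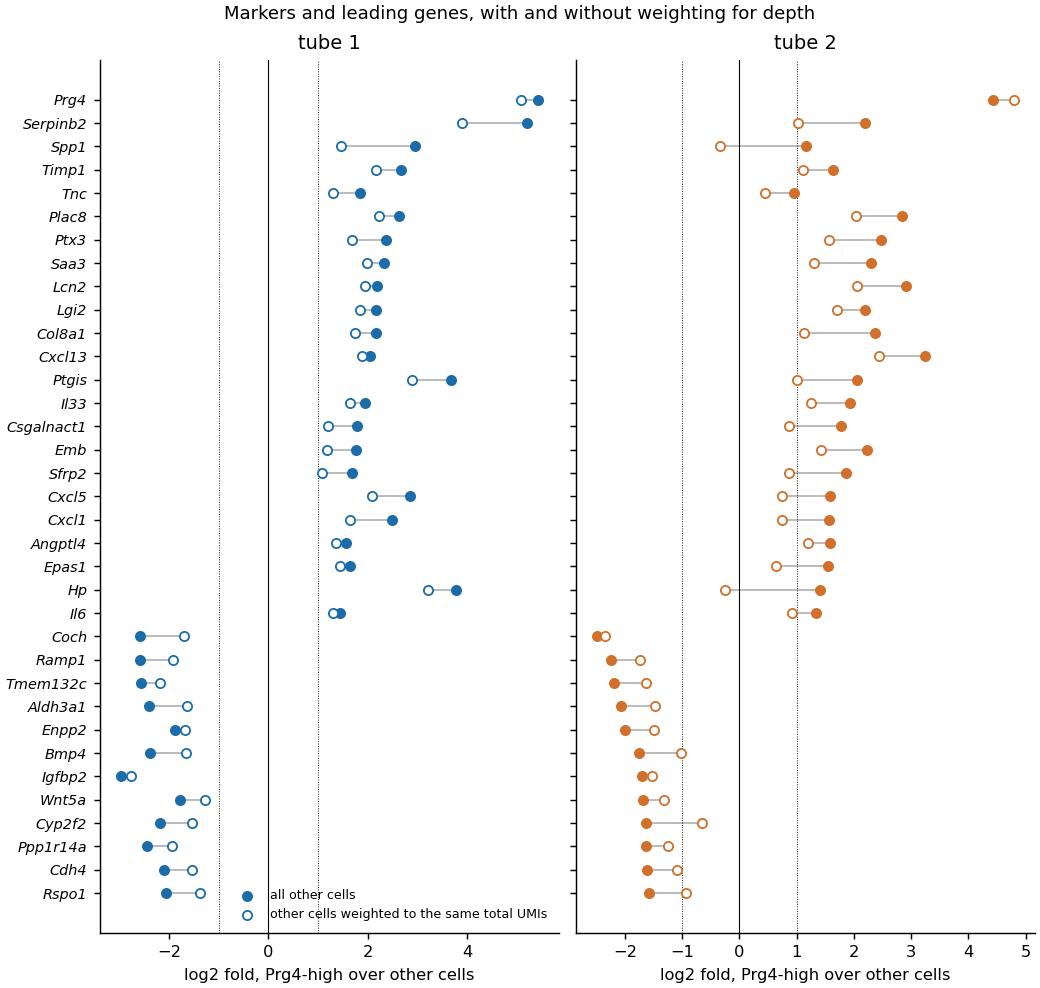
The x axis is the log2 fold of Prg4-high over other cells in tube 1 (left) and tube 2 (right) for the 5 markers, most of the other leading higher genes and the 12 leading lower genes; filled points use all other cells, open points the same cells weighted to the Prg4-high cells' total UMIs, and dotted lines mark 2-fold. Spp1 and Hp cross 0 in tube 2, and the 12 lower genes stay below 0 in both tubes.

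Around the limit of 3 UMIs the levels of Timp1 and Saa3 ran on without a step. In tube 1 the cells just outside it (2 UMIs, 314 cells) and just inside it (3 UMIs, 160 cells) had Timp1 at 1809 and 1834 CPM and Saa3 at 8747 and 10322 CPM. In tube 2 the 134 cells with 2 UMIs and the 36 with 3 UMIs had Timp1 at 2450 and 2263 CPM and Saa3 at 5199 and 4370 CPM. Not every gene did so: at 2 and 3 UMIs Plac8 stood at 242 and 411 CPM in tube 1 and at 58.3 and 162 CPM in tube 2. Cells with 11 or more Prg4 UMIs, 95 in tube 1 and 45 in tube 2, had Timp1 at 6289 and 5151 CPM, Saa3 at 20113 and 22704 CPM and Il33 at 439 and 416 CPM. Cells with 0 Prg4 UMIs had Timp1 at 566 and 1390 CPM, Saa3 at 2600 and 2357 CPM and Il33 at 85.1 and 77.2 CPM. Col1a1 stood at 22232 and 24957 CPM at 0 UMIs and at 14130 and 12945 CPM at 11 or more. Depth moved along the same axis, with medians of 2619 and 4188 UMIs at 0 Prg4 UMIs and 6756 and 13502 at 11 or more, and its part in these levels was not tested.

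**Figure D4:**
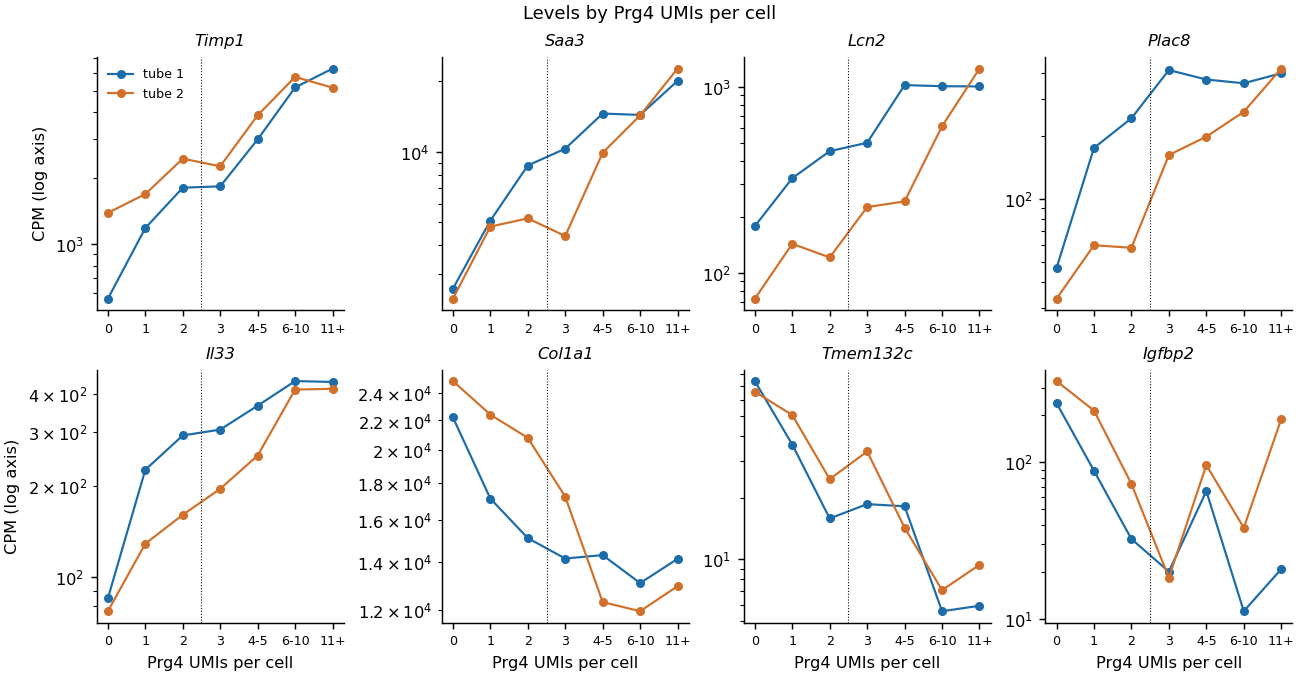
Each panel gives the CPM (log axis) of 1 gene in cells grouped by their Prg4 UMIs (x axis), in blue for tube 1 and orange for tube 2, and the dotted line is the limit of 3 UMIs. Timp1, Saa3, Lcn2, Plac8 and Il33 are higher at 11 or more UMIs than at 0 in both tubes, and Col1a1, Tmem132c and Igfbp2 are lower.

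To name the genes whose pattern was most like that of Prg4, each cell was thinned to 2000 UMIs and the share of cells with a UMI was compared between Prg4-high cells and cells with 0 Prg4 UMIs. All Prg4-high cells but 21 in tube 1 and 2 in tube 2, which were too shallow, were used. The 8 genes with the largest difference in the weaker tube were Il33, Angptl4, Chl1, Ldha, Plac8, Ccl7, Lcn2 and Pkm. Il33 was found in 40.3% against 12.9% of cells in tube 1 and in 39.4% against 11.1% in tube 2. Chl1, a neural cell adhesion molecule, was found in 43.2% against 18.8% and 43.6% against 13.1%, and the monocyte chemoattractant Ccl7 in 42.4% against 20.4% and 43.1% against 19.5%. The glycolytic enzymes Ldha and Pkm were found in 54.6% against 31.8% and 63.3% against 37.1% in tube 1, and in 60.6% against 29.6% and 58.0% against 36.6% in tube 2.

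In the same thinned cells the overlap with other fibroblast states could be counted. A level of 10 or more Saa3 UMIs was reached by 55.1% of Prg4-high cells against 10.3% of other cells in tube 1, and by 38.3% against 8.10% in tube 2. Pi16, a marker of universal fibroblasts of the adventitia and fascia, was found in 48.5% against 40.8% and in 55.9% against 43.1%, while Dpp4, another such marker, was found in 8.94% against 8.89% and in 5.85% against 8.20%. At least 1 of Wnt5a, Grem1 and Rspo1 was found in 7.79% against 24.2% and in 14.9% against 33.0%. Mki67 or Top2a, which mark cycling cells, was found in 6.27% against 3.04% and in 4.79% against 3.14%, and in tube 2 the interval of 2.21 to 8.89 for Prg4-high cells covered the value of the others. Acta2, smooth muscle actin, was found in 13.3% of Prg4-high cells and 763 of 12717 others in tube 1, and in 10.1% against 9.95% in tube 2.

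Prg4-high cells with and without a UMI of the rarer markers, Serpinb2 and Spp1, were also compared. The 106 cells of tube 1 and 14 of tube 2 with a Serpinb2 UMI were set against the other Prg4-high cells. Of 5457 measured genes, 17 were at least 2-fold higher in both tubes (0.312%) and 63 lower (1.15%). The 17 included Serpinb2, which set this split. Cxcl2, a neutrophil chemoattractant, was 2.92-fold and 3.16-fold higher, and Inhba, the activin A subunit, 5.54-fold and 2.55-fold. Cfd (complement factor D), Cilp, Smoc2 and Mgp were lower, with Mgp, an inhibitor of calcification, at 39.0 against 285 CPM in tube 1 and 481 against 1528 CPM in tube 2. Cells with a Serpinb2 UMI were deeper, with medians of 6199 against 4978 UMIs and 17657.5 against 10560, and the part of depth was not tested.

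The 61 and 17 Prg4-high cells with an Spp1 UMI had 46 of 5503 genes at least 2-fold higher than the remaining Prg4-high cells in both tubes (0.836%) and 83 lower (1.51%). The 46 included Spp1, which set this split. Mmp9, gelatinase B, stood at 79.9 against 4.21 CPM in tube 1 and 176 against 7.69 CPM in tube 2. Serpina3g, Tfpi2 (a serine protease inhibitor), the proteoglycan Sdc1 and Ltbp2 were also higher, with Serpina3g at 74.6 against 13.0 CPM and 123 against 13.8 CPM. Cxcl13 stood at 21.3 against 325 CPM and 28.1 against 659 CPM, and the universal fibroblast marker Pi16 was 2.57-fold and 5.88-fold lower. Cells with both Serpinb2 and Spp1 numbered 30 in tube 1 and 0 in tube 2. Cells with an Spp1 UMI were also deeper, with medians of 5956 against 5154 UMIs and 14635 against 10566. These subsets were small, and in tube 2 each rested on fewer than 20 cells.

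Hashtags, whose samples the labels do not name, carried unequal shares of Prg4-high cells. In tube 1 they made up 137 of 1136 cells of hashtag 1, or 12.1% (10.2 to 14.1), and 2.49%, 3.90%, 1.61%, 1.38% and 1.61% of hashtags 2 to 6. In tube 2 the shares were 3.93%, 6.25%, 10.1%, 4.44%, 2.35% and 1.27% for hashtags 1 to 6, on 3 to 12 Prg4-high cells each. Hashtag 1 thus held 137 of the 547 Prg4-high cells of tube 1 but 1136 of its 18172 cells. No single hashtag was assigned to 331 of 547 and 146 of 190 Prg4-high cells. The same held for 13189 of all 18172 cells in tube 1 and 3658 of all 4728 in tube 2, so these contrasts also carry unequal assignment. Spp1 over all cells of a hashtag stood at 105, 33.3, 13.2, 3.13, 0.690 and 6.11 CPM in hashtags 1 to 6 of tube 1 and at 329, 359, 229, 3.03, 8.47 and 10.1 CPM in those of tube 2. Saa3 stood at 8545, 2558, 6079, 1981, 1825 and 6661 CPM in hashtags 1 to 6 of tube 1. In those of tube 2 it stood at 4705, 2426, 21439, 2352, 1286 and 1342 CPM. It was highest in the hashtag with the highest share of Prg4-high cells in each tube, but not all others followed that order. Hashtag 6 of tube 1 had the next highest Saa3 of its tube at a share of 1.61%. Barcodes with 2 or more hashtags made up 14.4% of Prg4-high cells against 7.58% of others in tube 1 and 8.95% against 11.5% in tube 2; without them all 20 leading higher genes were still at least 2-fold higher in both tubes.

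**Figure D5:**
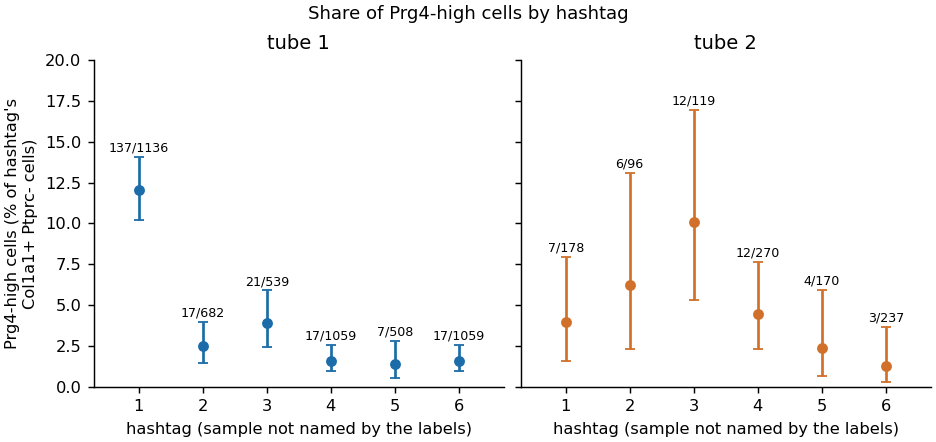
The y axis is the share of each hashtag's Col1a1-positive, Ptprc-negative cells that were Prg4-high, with 95% exact binomial intervals (counting error only) and the counts above each point, for 6 hashtags (x axis) in tube 1 (left) and tube 2 (right). Hashtag 1 of tube 1, with 137 of 1136 cells, lies above the other 5 of its tube.

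Within the 7 single hashtags with at least 10 Prg4-high cells, 5 in tube 1 and 2 in tube 2, Plac8 was at least 2-fold higher in Prg4-high cells in 7 of 7, with a lowest fold of 3.11. Ptgis (prostacyclin synthase), Ptx3, Lcn2, Lgi2, Il33 and Cxcl5 were at least 2-fold higher in 6 of 7, Timp1 in 5, Serpinb2 in 4 and Spp1 and Tnc in 3. Prg4-high cells had 0 UMIs of Serpinb2 and of Spp1 in 2 of the 7 and of Ptgis in 1, each on 12 or 17 cells, and no fold was given there. Cells without a single hashtag were not compared in this way. Spp1 was at least 2-fold lower in 1 hashtag and Hp in 2. Of the 12 leading lower genes, Aldh3a1, Igfbp2, Cyp2f2 and Rspo1 were each higher in Prg4-high cells in 1 of the 7, and the others in 0. With other cells weighted to the Prg4-high cells' hashtags, 33 genes were at least 2-fold higher in both tubes, 27 of them among the 97. Of the 69 that were lower, 42 were among the 83. A 2-fold difference was then kept by 12 of the 20 leading higher and 10 of the 12 leading lower genes.

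The bulk libraries took no part in choosing the cells and allow tests, with 2 to 6 libraries a group and no statement that they came from separate animals, so p-values measure the spread between these libraries. Fewer cells of a type and less RNA per cell cannot be told apart in bulk. Prg4 had 0 counts in all 24 libraries. None of its 4280 exon bases belongs to only 1 of its 8 annotated transcripts, and how reads shared by transcripts were counted is not stated in these sources, so a count of 0 does not speak on its expression. Spp1 and Timp1, with 4.61% and 6.76% of exon bases in 1 transcript, had at most 5 and 11 counts and were not tested.

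Serpinb2 and Tnc were detected mainly at P1. Of their exon bases, 11.4% and 12.1% lay in only 1 transcript, so how shared reads were counted limits their values too. Serpinb2 stood at 25.4 and 28.9 CPM in the 2 PPF libraries of P1, at 0 to 19.7 CPM (median 0.338) in the 4 PNF libraries of P1, and at most 5.38 CPM in every library of other ages. Tnc stood at 52.3 and 27.0 CPM in PPF at P1, at 2.70 to 48.4 CPM (median 22.1) in PNF at P1, and at most 14.4 CPM elsewhere. At P1 the PPF and PNF values overlapped for Tnc and did not for Serpinb2, on 2 and 4 libraries. The share of all genes without overlap there was not counted. Averaged over the 4 ages, neither difference passed the test (edgeR quasi-likelihood). The log2 fold of PPF over PNF was -1.62 for Serpinb2 (edgeR adjusted p = 0.618) and -1.40 for Tnc (edgeR adjusted p = 0.524). Without PNF P30 B these log2 folds were 0.28 and 0.39. Prrx1 itself had a log2 fold of 0.65 with an adjusted p of 0.693. Of the 12 tested genes among the markers, Prrx1 and the 12 leading higher genes, 0 were called in PPF against PNF over all ages (0.675% of all 15557 tested genes were), 0 at P30 (0.122%) and 0 in P30 against E16.5 (0.746%), by edgeR at an adjusted p under 0.05. At an unadjusted p under 0.05, 2 of the 12 passed over all ages, 2 at P30 and 1 between ages. Of all 15557 genes, 2163, 1515 and 2464 did so. DESeq2 called 1 of the 12 in each comparison. Among all genes it gave an adjusted p, it called 842 of 13210, 230 of 12048 and 1299 of 13507.

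Of the 97 genes higher in Prg4-high cells, 81 were tested in bulk. Sbsn was lower in PPF over all ages (1 of 81, 1.23%, against 0.675% of all genes), 0 differed at P30, and Ifi205 was higher at P30 than at E16.5 (1 of 81, against 0.746%); these 2 were named after their values were seen. Of the 83 genes lower in Prg4-high cells, 75 were tested, and 7 of them, or 9.33%, were higher at P30 than at E16.5, against 0.746% of all genes called in either direction. The median log2 fold of the 75 was 2.15, with 66 above 0, against -0.01 over all genes. The 75 had all reached 20 CPM in cells of postnatal skin, which was not asked of all genes tested in bulk. Genes of that level as a whole were not compared, so these contrasts do not link the lower genes to age. Rspo1 stood between 27.5 and 59.7 CPM in the 4 libraries of E16.5 and at 98.2 CPM or more in the 8 of P30, with a log2 fold of 2.73 and an adjusted p of 0.0291 (edgeR). Osr2, a transcription factor of body position, stood between 83.7 and 217 CPM at E16.5 and between 301 and 1906 CPM at P30, and it was also higher in PPF than in PNF over all ages, with a log2 fold of 1.31 and an adjusted p of 0.0406 (edgeR). For both genes the libraries of E16.5 and P30 did not overlap, but the share of all tested genes without overlap was not counted. Cyp2f2, a cytochrome P450, was at most 0.135 CPM at E16.5, between 391 and 2397 CPM in the 6 PPF libraries of P30 and at 0 and 159 CPM in the 2 PNF libraries of P30. Aldh3a1 was listed at 0 in all libraries of E16.5 at 3.58 to 11.3 CPM in PPF at P30 and at 0 and 7.16 CPM in the 2 PNF libraries of P30, so 1 library of P30 was level with E16.5. These 4 genes were picked out after their values were seen.

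These calls rested on few libraries. With 1 of the 24 libraries left out, the call of Osr2 in PPF against PNF was lost in 14 of 24 fits (edgeR adjusted p from 0.0174 to 0.196): without each library of E16.5 and E18.5, PNF P1 B, PPF P1 A, PPF P1 B or PNF P30 A. That of Sbsn was lost in 12 (0.0126 to 0.271): without each library of E16.5, PNF E18.5 C or D, PPF E18.5 A or B, PNF P1 B, PPF P1 A or B, or PPF P30 F. By age, Rspo1, Osr2, Cyp2f2, Ifi205 and Aldh3a1 each lost their call without any 1 library of E16.5. Cyp2f2, Ifi205 and Aldh3a1 also lost it without PNF P30 B, Osr2 without PPF P1 B, and Aldh3a1 without PNF P1 B, PNF P1 D, PPF P30 E or PPF P30 F. Without PNF E16.5 A, PNF E16.5 B or PPF E16.5 A the 7 became 0, without PPF E16.5 B 1, without PNF E18.5 A 12, and without PNF P30 A 22. Without PNF P30 B, the median of the genes lower in Prg4-high cells was -0.24 and that of all genes -1.56. Erythroid genes took 46.4% of counts in PNF P30 A and 43.1% in PNF E18.5 A, and without both libraries 23 of the genes lower in Prg4-high cells were called, among 544 of all genes. Under RLE scaling the median of all genes moved from -0.01 to 0.29, the calls over all genes went from 64 higher and 52 lower to 107 and 36, and the median of the genes lower in Prg4-high cells stayed 2.17 above that of all genes.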

How the data were processed

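Single-cell values were UMI counts per gene and barcode, deposited by the authors as 10x matrices whose header names software 3.1.0, on mm10 per the submitters' processing notes, which also name Seurat 3.2 and 3.1.1. Bulk values were read counts per transcript from featureCounts tables deposited by the authors; FPKM columns were not used. Transcripts were matched to GENCODE vM21 (82916 of 95883) and summed to genes, leaving 3.329% to 7.102% of counts unmatched and 4264647 to 17187950 counts per library.

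UMIs were summed over cells per tube and scaled to CPM, with exact conditional intervals for ratios. A fold against 0 UMIs used a floor of 3 UMIs. Genes at 20 CPM or more in either class in both tubes were measured, and at least 2-fold in both tubes was the call. Named were the markers, the 20 largest and 12 smallest weaker-tube folds at 50 CPM or more (for higher genes in at least 10% of Prg4-high cells), up to 4 genes of each of 41 lists and the 8 genes most like Prg4. A hashtag was assigned where its count plus 1 was at least 3 times its median plus 1 over the tube's Col1a1+ Ptprc- cells, with the next under 2 times. No doublets were removed, as Scrublet's automatic limit marked 0 barcodes in both tubes. Promoter windows came from RefSeq.

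Bulk groups were tested with edgeR's quasi-likelihood test (two-sided, Benjamini-Hochberg over 15557 genes, all 24 libraries, no block). Replicate letters were not used as a pairing. Over 62 same-letter pairs, r of the deviations from group means ran from -0.206 to 0.14. Pairs of different letters were not compared, and in groups of 2 libraries the deviations mirror each other, so this does not settle pairing. Both computations were tested on simulated data. Members and lists were chosen with earlier results of these data known. Alternatives were other limits for Prg4, genes and mitochondrial share, depth weighting, cell means, RLE scaling, DESeq2, no filter, a replicate block and leaving out libraries; those on hashtags, on the top 6% of doublet scores and on erythroid-rich libraries were added after seeing the data. Versions were Python 3.11.15, numpy 2.4.6, scipy 1.17.1, pandas 2.3.3, scanpy 1.11.5, R 4.3.3, edgeR 4.0.16 and DESeq2 1.42.0. Some genes that the naming rule covers are not reported here.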

Additional observations from a re-analysis of the deposited data

Results flagged for a closer look

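In groups of 4 to 10 samples, the gap of a sample to the nearest other was divided by the range of its group. A sample was picked out where this passed Dixon's 95% critical value. For independent, normally distributed values, chance gives about 1 such group in 20. Here the groups share libraries and some CPM values are 0, so that rate is no reference. Such groups numbered 11 of 37. One was the share of Prg4-high cells in hashtag 1 of tube 1, 12.1% of its cells, with a gap of 0.764 of the range over 6 hashtags (critical value 0.625).

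The others were single bulk libraries. In PNF P1 B, the deepest PNF library of that age, Serpinb2 stood at 19.7 CPM, Saa3 at 132.7 CPM and Cxcl13 at 2.06 CPM, each the highest of 4. Saa3 was also highest in PNF E18.5 B at 3.30 CPM (the other 3 were at 0) and in PPF P30 B at 80.9 CPM of 6 libraries. Cxcl13 was highest in PPF P30 A at 115.8 CPM, and Ptgis in PNF E18.5 B at 32.7 CPM and in PPF P30 C at 15.9 CPM. Prrx1 was highest in PNF E18.5 A at 104.1 CPM, as was Emb at 278.6 CPM, in a library with 43.1% of its counts in erythroid genes; the part of those counts was not tested.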

How the results depend on the processing

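The share of Prg4-high cells moved with each limit. In tubes 1 and 2 it was 4.74% and 6.85% at 2 or more Prg4 UMIs, 1.69% and 2.64% at 5 or more, 4.20% and 4.69% with at least 1000 genes per barcode, 7.76% and 4.63% at 5% mitochondrial UMIs or less, 1.78% and 1.13% in cells thinned to 2000 UMIs, and 2.41% in tube 1 without hashtag 1. Genes at least 2-fold higher and lower numbered 63 and 48 at 2 or more Prg4 UMIs, 24 and 28 with depth weighting, and 33 higher with hashtag weighting. The weaker log2 fold of Lrrc15 turned to -0.26 with depth weighting and that of Csf1r to 0.19 with hashtag weighting. The alternative that removes barcodes marked by Scrublet's automatic limit gave no value, as it marked 0.

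In bulk the calls over all ages (105), at P30 (19) and by age (116) became 842, 230 and 1299 with DESeq2, 428, 144 and 208 with no filter, and 320, 6 and 544 without the erythroid-rich libraries; at P30, RLE scaling gave 9. With the replicate block, whose pairing by letter was not settled, they were 28, 0 and 20. For the 0, 940 genes had an unadjusted p under 0.05 and DESeq2, without the block, called 230. The 7 genes lower in Prg4-high cells and called higher at P30 became 37 with DESeq2, 13 with no filter, 2 with the replicate block and 23 without the erythroid-rich libraries, and 0 to 22 with 1 library left out.

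Leaving out each library in turn gave 2 to 1479 calls over all ages, 3 to 2687 at P30 and 0 to 1698 by age, all 3 highest without PNF P30 B. By age, the count was 0 without PNF E16.5 B (1708 genes at an unadjusted p under 0.05), 2, 6 and 9 without PNF E16.5 A, PPF E16.5 A and PPF E16.5 B, 77, 74 and 72 without PNF P1 D, PPF P1 A and PPF P1 B, and 308 and 201 without PNF P30 A and PNF E18.5 A. Over all ages it was 2 without PPF P1 A or B, 3 and 14 without PPF E16.5 A and B, 47 and 49 without PNF E16.5 A and B, 13 and 12 without PPF E18.5 A and B, 66 without PNF E18.5 D and 220 without PNF P30 A. At P30 it was 35 without PPF P30 A and 3 to 10 without 17 other libraries. The log2 fold of PPF over PNF ran from -2.52 to 0.28 for Serpinb2 and from -3.15 to 0.39 for Tnc, both positive without PNF P30 B.

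Bulk calls thus rest on few libraries per group, and in tube 2 the subsets of Prg4-high cells rest on few cells.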
